A study of Homo sapiens with 10 samples.

Results

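HCT116 is a human colorectal carcinoma cell line, and the 6 libraries described here are cultures of this line with the same genotype and no treatment, out of 10 libraries in the series. Libraries were chosen by their labels alone: replicates 7, 8 and 9, labelled batch 4, were set against replicates 1, 2 and 3, of which replicate 1 is labelled batch 1 and replicates 2 and 3 are labelled batch 2. The other 4 libraries come from DNMT1 KO, a derivative of HCT116 that keeps a truncated, hypomorphic form of the maintenance DNA methyltransferase DNMT1; its replicate 1 is labelled batch 1, its replicates 2 and 3 batch 2 and its replicate 4 batch 3. Both lines were grown in McCoy's 5A medium with foetal calf serum and antibiotics, and polyadenylated RNA from snap-frozen cell pellets was sequenced as stranded paired-end libraries. The labels do not say whether a batch is a culture, an RNA extraction or a sequencing run, so these cannot be told apart, and p-values measure the spread between these libraries. The comparison asks which genes vary between cultures of 1 genotype, and which of them also separate replicate 1 from replicates 2 and 3.

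Proliferating cell lines carry gene programmes that move with culture density, nutrient supply and time since passage. The genes of G1/S and DNA replication are driven by E2F factors, and those of G2 and mitosis by the MuvB, B-Myb and FOXM1 complexes, which bind promoters through the cell cycle genes homology region and cooperate with the CCAAT-binding factor NF-Y. The integrated stress response is a separate programme: when amino acids run short or proteins misfold in the endoplasmic reticulum, phosphorylation of eIF2alpha slows translation and favours synthesis of the transcription factor ATF4, which binds composite C/EBP-ATF elements upstream of genes for amino acid synthesis, amino acid transport and stress signalling.

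The HCT116 libraries held 35418732, 46186639 and 38024852 counts in replicates 1, 2 and 3 and 80895490, 70201678 and 85991812 counts in replicates 7, 8 and 9, and 18656 genes passed the filter on low counts. Levels of single genes are given in CPM, the count of a gene relative to the library total after scaling by the trimmed mean of M-values; those of EPCAM and of the markers in this paragraph, and all summed marker levels, are relative to the library total without that scaling. Mitochondrially encoded genes held 0 counts in each library and were not measured. DNMT1 stood at 178, 97.4 and 87.1 CPM in HCT116 replicates 1, 2 and 3, at 245, 116 and 139 CPM in replicates 7, 8 and 9 and at 14.1 to 22.2 CPM in the DNMT1 KO libraries, so the levels of the 2 lines did not overlap. Of 14 colon epithelial markers 10 exceeded 1 CPM in at least 1 library, among them EPCAM at 217.5 to 379 CPM, whereas KRT20 was at 0 and VIL1, CDX1 and LGALS4 stayed below 0.2 CPM. Summed levels of 16 leukocyte markers (2.10 to 3.09 CPM) and 8 endothelial markers (0.372 to 2.08 CPM) were low in all 6 libraries, those of 14 fibroblast markers ranged from 11.8 to 33.1 CPM, 4 of them at 0, and those of 10 neural markers from 11.6 to 41.1 CPM.

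In batch 4, 30 of 69 genes of G2/M and mitosis and 12 of 50 genes of G1/S and DNA replication were called higher than in batches 1 and 2, and 24 of 42 genes of the integrated stress response were called lower. In all, 577 genes were higher and 921 lower in batch 4 (3.09% and 4.94% of genes tested) at an adjusted p under 0.05 in edgeR's quasi-likelihood test and a difference over 2-fold, referred to as called. All gene lists were drawn up with earlier results of these data known. Their counts describe the lists as drawn up and were not tested against the shares of all genes. Among all genes tested, 29.4% had 3 batch 4 libraries that did not overlap with the other 3, and the median log2 fold change was 0.007. Exact permutation of 3 against 3 libraries cannot go below p = 0.1. These counts rested on single libraries: without replicate 1 there were 1800 higher and 1770 lower genes, without replicate 2 46 and 299, without replicate 3 273 and 575, without replicate 7 178 and 246, without replicate 8 122 and 368 and without replicate 9 47 and 187. Of the 103 genes called for batch 4 and picked by the naming rules, 25 kept their call without any single library and in each other alternative. Not all of the 103 are given in the text, and some genes given, such as AARS1 and BIRC5, were not among them. All 103 kept their direction, but 572 of the 577 higher and 869 of the 921 lower genes had no overlap. Leaving out a library can hardly change the direction of such genes.

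Replicate 1 lay between the other batches. Along the first principal component of the 1000 most variable genes, which held 62.9% of their variance, replicate 1 was placed at -6.69, replicates 2 and 3 at -38.9 and -55.5 and replicates 7, 8 and 9 at 30.6, 31.4 and 39.0; a second component with 21.01% set replicate 1 at 41.99 and replicate 3 at -22.8 at its ends. Replicates 2 and 3 differed by more than 2-fold at 15.6% of genes, and libraries within batch 4 at 8.32% to 15.6%, whereas replicate 1 differed from replicates 2 and 3 at 24.8% and 31.8% and from replicates 7, 8 and 9 at 21.4%, 25.2% and 31.5%. Libraries of batch 2 differed from those of batch 4 at 26.3% to 39.2% of genes. A fit with the 3 batches as levels called 202 genes higher and 151 lower in replicate 1 than in batch 2 (1.08% and 0.809%), 1768 higher and 1718 lower in batch 4 than in batch 2 (9.48% and 9.21%), and 43 higher and 288 lower in batch 4 than in replicate 1 (0.23% and 1.54%). Batch 1 is a single library here, so its spread was taken to be that of batches 2 and 4. The counts for replicate 1 fell to 7 higher and 11 lower genes without replicate 3 and to 73 and 50 without replicate 7, and the higher genes reached 373 without replicate 2.

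**Figure D1:**
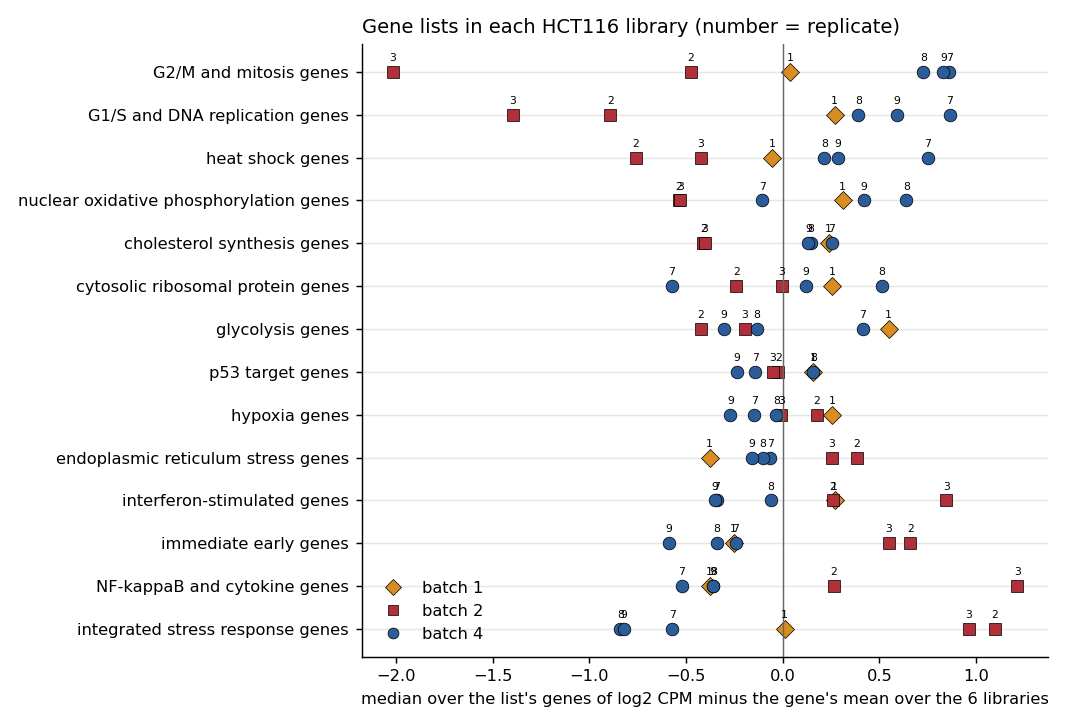
Median level of each of 14 gene lists in each HCT116 library, as log2 CPM minus each gene's mean over the 6 libraries; the number beside each symbol is the replicate, diamonds are batch 1, squares batch 2 and circles batch 4. For G2/M and mitosis genes replicate 3 sat at -2.02 and batch 4 at 0.73 to 0.86, and for integrated stress response genes batch 2 sat at 0.96 to 1.10 and batch 4 at -0.84 to -0.57, with replicate 1 near 0 in both.

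Of 69 tested genes of G2/M and mitosis, 30 were called higher in batch 4 than in batches 1 and 2, none was called lower, and the median log2 fold change was 1.45. The libraries of both groups did not overlap at 61 of the 69. Replicate 3 was the lowest of the 6 libraries at 67 of the 69 and lay below replicate 2 at 68. For such places of single libraries, here and in the lists below, the share over all genes was not taken. They therefore do not tell a trait of a list from a shift of the whole library. The number called depended on each library: it was 60 without replicate 1, 4 without replicate 2, 13 without replicate 3, 0 without replicate 7, 7 without replicate 8 and 1 without replicate 9.

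BUB1, a kinase of the spindle assembly checkpoint (chromosome 2, minus strand), stood at 45.9, 39.5 and 10.3 CPM in replicates 1, 2 and 3 and at 112, 138 and 124 CPM in replicates 7, 8 and 9. Batch 4 was higher by 1.97 ± 0.44 (log2 fold change ± SE, adjusted p = 0.017). Replicate 1 lay next to replicate 2, with replicate 3 well below both. DLGAP5, which stabilises spindle microtubules (chromosome 14, minus strand), followed the same order, with 22.6, 21.6 and 4.04 CPM against 62.9, 93.5 and 82.0 CPM (2.3 ± 0.49, adjusted p = 0.0138). SGO2, a protector of centromeric cohesin, stood at 27.5, 35.5 and 6.84 CPM against 77.3, 109 and 139 CPM (2.22 ± 0.48, adjusted p = 0.0146). The groups did not overlap at any of these genes. CENPI, a component of the inner kinetochore, was higher in batch 4 by 1.90 on the log2 scale.

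The 250 bases upstream of the RefSeq start sites of BUB1 (chr2:110678064-110678313, minus strand) and DLGAP5 (chr14:55191586-55191835, minus strand) are shown as examples of where the letters searched for lie; build GRCh38.p14, in the direction of the gene, with the cell cycle genes homology region TTTGAA and the CCAAT box on either strand in capitals. The last bases of the DLGAP5 stretch overlap the first exon of its GENCODE model.
BUB1: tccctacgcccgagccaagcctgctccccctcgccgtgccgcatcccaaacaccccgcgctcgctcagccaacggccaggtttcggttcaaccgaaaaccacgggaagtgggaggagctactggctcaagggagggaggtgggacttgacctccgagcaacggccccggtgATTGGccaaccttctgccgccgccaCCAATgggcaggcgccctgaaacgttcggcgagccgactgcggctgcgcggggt
DLGAP5: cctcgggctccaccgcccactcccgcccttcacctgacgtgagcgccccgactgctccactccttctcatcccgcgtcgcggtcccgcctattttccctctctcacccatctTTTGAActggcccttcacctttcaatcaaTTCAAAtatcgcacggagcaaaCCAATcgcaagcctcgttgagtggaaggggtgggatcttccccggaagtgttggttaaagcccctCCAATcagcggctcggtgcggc
BUB1 held 2 CCAAT boxes, beginning 79 and 54 bases before the start, and DLGAP5 held 4 matches between 138 and 22 bases before it. RefSeq promoters of 300 bases (250 before and 50 after the start) were at hand for 58 of the 69 genes. TTTGAA was found in a promoter of 40 of these 58 genes (69.0%), including 16 of the 24 called higher that had a promoter, against 18.2% of all 27305 genes with a promoter (15.2% of 35116 promoters). CCAAT was found for 47 of 58 (81.0%), including 20 of 24 called higher, against 39.7% of genes (34.6% of promoters). These shares, and those given below for other lists, describe the lists as drawn up and were not tested.

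Between replicate 1 and batch 2, 5 of the 69 G2/M and mitosis genes were called higher and none lower, with a median of 1.00. That count was 37 without replicate 2, 0 without replicate 3, 1 without replicate 7, 9 without replicate 8 and 8 without replicate 9. SPC24, a subunit of the NDC80 kinetochore complex, stood at 48.9 CPM in replicate 1, 9.16 and 6.01 CPM in replicates 2 and 3 and 53.4, 61.4 and 49.0 CPM in batch 4. Replicate 1 lay just below the lowest batch 4 library and above batch 2 by 2.69 ± 0.40 (adjusted p = 0.00838). CDCA3, a trigger of mitotic entry, passed in both comparisons: it stood at 38.9, 12.9 and 5.18 CPM in replicates 1, 2 and 3 and at 62.0, 63.9 and 68.9 CPM in batch 4 (1.78 with adjusted p = 0.0483 for batch 4, 2.10 with adjusted p = 0.0323 for replicate 1).

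Of 50 genes of G1/S and DNA replication, 12 were called higher in batch 4 and none lower (median 1.18), and 32 had libraries that did not overlap. Here replicate 1 stood further from batch 2: 16 of the 50 were called higher in replicate 1 than in batch 2, none lower, and the median was 1.45. The count for batch 4 was 46 without replicate 1, 0 without replicate 2 or replicate 9, 6 without replicate 3, 1 without replicate 7 and 5 without replicate 8, and the count for replicate 1 was 0 without replicate 3 and 8 without replicate 7. Replicate 3 was the lowest library at 46 of the 50 genes, and replicate 7 the highest at 30.

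GINS1, a subunit of the replicative helicase, stood at 73.9, 29.8 and 15.9 CPM in replicates 1, 2 and 3 and at 125, 190 and 203 CPM in batch 4 (2.12 ± 0.47, adjusted p = 0.0163). POLE2, the accessory subunit of DNA polymerase epsilon, stood at 6.37, 2.57 and 1.27 CPM against 11.5, 15.8 and 19.2 CPM (2.19 ± 0.49, adjusted p = 0.0169). In both genes replicate 1 was intermediate. ORC6 of the origin recognition complex, the checkpoint mediator CLSPN and the clamp loader subunit RFC4 were higher in batch 4 by 1.81, 1.61 and 1.44 on the log2 scale. TK1, the thymidine salvage kinase, instead joined replicate 1 to batch 4: it stood at 490 CPM in replicate 1, 67.5 and 45.0 CPM in replicates 2 and 3 and 506, 377 and 314 CPM in batch 4. Replicate 1 exceeded batch 2 by 3.12 ± 0.46 (adjusted p = 0.00794), whereas batch 4 against batches 1 and 2 gave 0.99 with an adjusted p of 0.357. The E2F letters TTTGGCGC were found in a promoter of 10 of 42 members (23.8%), including 3 of the 12 called higher in batch 4. Over all genes the share was 0.79% (0.65% of promoters). TTTCCCGC was found in 11 of 42 (26.2%), including 2 of those 12, against 1.98% of genes (1.63% of promoters). Both strands were searched.

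Among 20 cyclins, CDKs and their inhibitors, 2 were called higher in batch 4 and 2 lower, and 3 were called higher in replicate 1 than in batch 2 and 1 lower. CDKN2B, the CDK4 and CDK6 inhibitor p15, stood at 15.8, 58.2 and 75.4 CPM in replicates 1, 2 and 3 and at 6.56, 8.46 and 6.39 CPM in batch 4. It was lower in batch 4 (-2.80 ± 0.47, adjusted p = 0.00507) and lower in replicate 1 than in batch 2 (-2.08, adjusted p = 0.0341), so replicate 1 stood between the other batches. CDKN2C, the related inhibitor p18, ran the other way, with 15.7 CPM in replicate 1, 1.98 and 0.674 CPM in batch 2 and 16.3, 15.98 and 12.2 CPM in batch 4 (3.55 ± 0.52 for replicate 1, adjusted p = 0.00794). E2F8, a repressor of E2F targets, and CDK6 were higher in batch 4 (1.64 and 1.27), and the pocket protein gene RBL2 was lower (-1.08). SKP2, which marks p27 for degradation, was higher in replicate 1 than in batch 2 (1.84, adjusted p = 0.0373). Of 24 tested histone genes of the replication-dependent clusters, 4 were called higher and 5 lower in batch 4 and 1 higher in replicate 1. H2BC5 fell from 15.9, 10.3 and 15.6 CPM to 2.47, 4.40 and 2.63 CPM (-2.14, adjusted p = 0.00619), and H2AC6, H2BC15 and H3C6 were lower by the test as well. Most transcripts of these genes lack a poly(A) tail, so the libraries saw the polyadenylated remainder.

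The integrated stress response moved opposite to the cell cycle genes. Of its 42 tested genes, 24 were called lower in batch 4 and none higher, the median was -1.58 and the log2 fold change was negative at each of the 42. Between replicate 1 and batch 2, 8 of the 42 were called lower and none higher (median -0.97). Replicate 2 was the highest library at 20 genes and replicate 3 at another 20. The number called lower in batch 4 was 11 without replicate 9, 12 without replicate 2, 13 without replicate 8, 14 without replicate 7, 19 without replicate 3 and 31 without replicate 1, and the number called lower in replicate 1 was 1 without replicate 3 and 5 without replicate 7.

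CHAC1, which degrades glutathione (chromosome 15, plus strand), stood at 67.0, 228 and 312 CPM in replicates 1, 2 and 3 and at 15.6, 8.97 and 10.7 CPM in batch 4. All 3 batches were separate, with batch 4 below the rest (-4.10 ± 0.51, adjusted p = 0.00161) and replicate 1 below batch 2 (-2.01, adjusted p = 0.0472). DDIT4, an inhibitor of mTORC1, stood at 80.0, 257 and 274 CPM against 25.1, 32.5 and 19.5 CPM (-2.98 ± 0.44, adjusted p = 0.00283). NUPR1, a small stress-induced chromatin protein, stood at 1.46, 6.23 and 14.1 CPM against 0.208, 0.345 and 0.310 CPM (-4.65 ± 0.69, adjusted p = 0.00283). In these genes replicate 1 lay between batch 2 and batch 4.

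PCK2, the mitochondrial enzyme that makes phosphoenolpyruvate, grouped replicate 1 with batch 2 more closely: it stood at 167, 250 and 240 CPM in replicates 1, 2 and 3 and at 42.2, 38.0 and 27.6 CPM in batch 4 (-2.61 ± 0.34, adjusted p = 0.00161), and replicate 1 against batch 2 gave -0.55 with an adjusted p of 0.532. The neutral amino acid transporter gene SLC1A4 was lower in batch 4 (-2.77). The transcription factor gene ATF3 grouped replicate 1 with batch 4 instead: it stood at 24.5 CPM in replicate 1, 147 and 146 CPM in batch 2 and 23.9, 37.5 and 35.5 CPM in batch 4. Replicate 1 lay below batch 2 (-2.58 ± 0.48, adjusted p = 0.0173), and batch 4 against batches 1 and 2 gave -1.71 (adjusted p = 0.0486). PPP1R15A, the GADD34 subunit that restores eIF2alpha, had the same layout, with 66.2 CPM in replicate 1, 478 and 362 CPM in batch 2 and 73.5, 62.2 and 73.0 CPM in batch 4 (-2.67 ± 0.50 for replicate 1, adjusted p = 0.0173). Thus the genes of the list did not place replicate 1 alike: of 31 called between batch 4 and batch 2, replicate 1 was at or past batch 4 at 7, between at 21 and at or past batch 2 at 3.

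The ATF4 composite element, letters TGATGNAA on either strand, was found in a RefSeq promoter of 15 of 36 members (41.7%), including 9 of the 21 called lower that had a promoter, against 4.46% of all genes (3.62% of promoters). The 8 sites below are shown as 30 bases in the direction of the gene with the match in capitals as examples of that match; the genes were chosen by holding it. The 30-base stretches of AARS1, CHAC1, JDP2, SLC1A4 and SLC1A5 overlap a GENCODE exon, at the match or only at its flanks. That of CEBPG overlaps the gene but no exon, and those of ATF3 and FGF21 lie outside the gene model.
AARS1: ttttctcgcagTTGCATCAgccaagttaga
ATF3: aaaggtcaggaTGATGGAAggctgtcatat
CEBPG: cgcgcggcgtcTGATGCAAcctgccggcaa
CHAC1: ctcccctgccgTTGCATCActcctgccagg
FGF21: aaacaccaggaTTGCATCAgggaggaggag
JDP2: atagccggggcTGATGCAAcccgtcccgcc
SLC1A4: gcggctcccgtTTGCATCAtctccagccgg
SLC1A5: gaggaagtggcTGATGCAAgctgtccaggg
In build GRCh38.p14 they lie at chr16:70289675-70289704 (minus strand), chr1:212565205-212565234, chr19:33374060-33374089, chr15:40953251-40953280, chr19:48755459-48755488, chr14:75427995-75428024, chr2:64989381-64989410 and chr19:46784893-46784922 (minus strand), beginning 187, 191, 42, 209, 54, 16, 7 and 97 bases before the start. Both TGATGCAA and its reverse TTGCATCA occurred, and ATF3 alone had TGATGGAA. AARS1, the alanyl-tRNA synthetase, stood at 354, 798 and 981 CPM in replicates 1, 2 and 3 and 286, 187 and 147 CPM in batch 4 (-1.78, adjusted p = 0.0208). SLC1A5, the glutamine transporter ASCT2, did not separate replicate 1, with 530, 459 and 581 CPM against 319, 175 and 181 CPM (-1.22, adjusted p = 0.0454). FGF21, a secreted stress hormone, was near its detection limit in batch 4, at 0.0288 to 0.0554 CPM, and at 0.234, 1.83 and 3.5 CPM in replicates 1, 2 and 3.

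**Figure D2:**
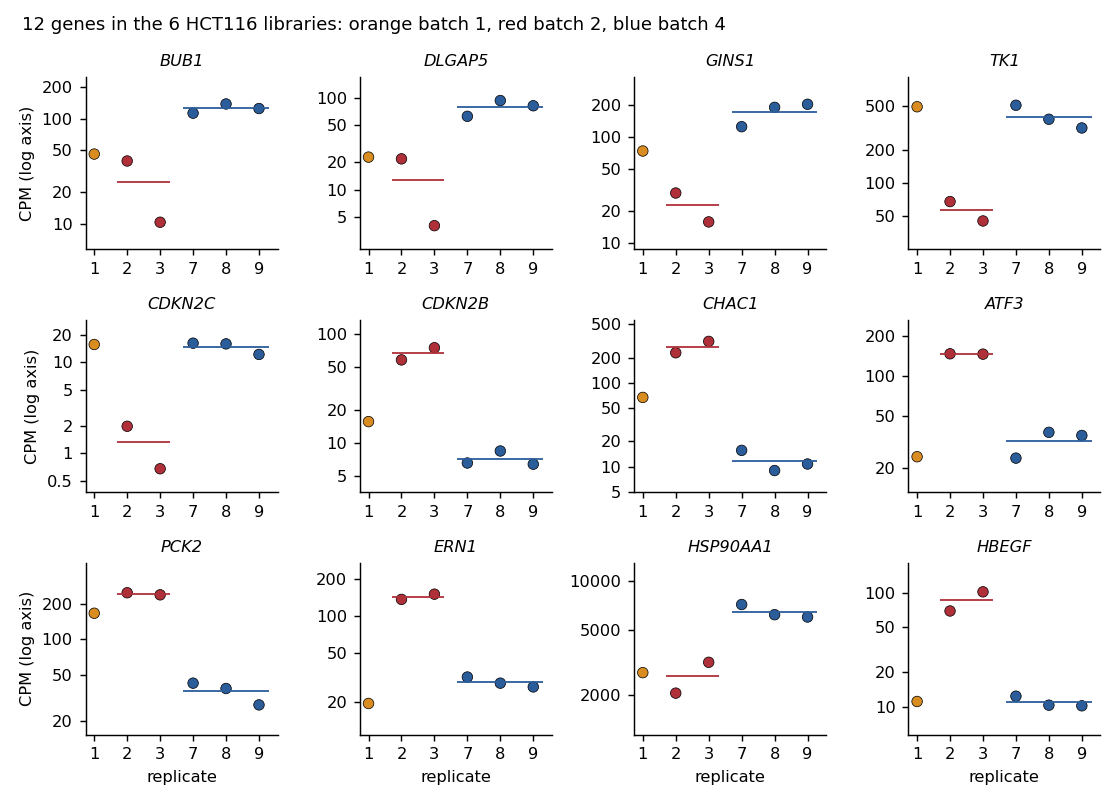
Level of 12 genes in each HCT116 library (CPM, log axis; replicates 1, 2, 3, 7, 8 and 9 on the horizontal axis); orange is batch 1, red batch 2, blue batch 4, and lines mark the mean of batches 2 and 4. Replicate 1 lay with batch 4 for TK1, CDKN2C, ATF3, ERN1 and HBEGF, between the batches for CHAC1 and CDKN2B, and near batch 2 for PCK2 and HSP90AA1.

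Other stress lists gave fewer calls, beside 4.94% of all genes called lower and 3.09% higher in batch 4. Of 27 genes of the endoplasmic reticulum stress response, 1 was called lower in batch 4 (median -0.28), and replicate 1 was the lowest library at 13. Between replicate 1 and batch 2, 1 member was called higher and 2 lower. The higher one, chosen after its values were seen, was SDF2L1, a lumenal chaperone cofactor, at 62.3 CPM in replicate 1, 20.3 and 19.6 CPM in batch 2 and 60.6, 47.5 and 46.05 CPM in batch 4 (1.64, adjusted p = 0.0404). ERN1, the sensor kinase IRE1alpha, stood at 19.4 CPM in replicate 1, 137 and 151 CPM in batch 2 and 31.9, 28.4 and 26.5 CPM in batch 4, and was lower both in batch 4 (-1.82, adjusted p = 0.0459) and in replicate 1 (-2.89 ± 0.47, adjusted p = 0.0104). HSPA5, the lumenal chaperone BiP, stood at 976 CPM in replicate 1, 4876 and 5801 CPM in batch 2 and 1762, 1336 and 1150 CPM in batch 4. For this gene replicate 1 was the lowest of all 6 libraries and differed from batch 2 (-2.45, adjusted p = 0.0385), while batch 4 against batches 1 and 2 did not pass (-1.46, adjusted p = 0.0925). Of 23 heat shock genes 6 were called higher in batch 4 and none lower (median 0.67). HSP90AA1, the inducible cytosolic HSP90, stood at 2744, 2055 and 3176 CPM against 7178, 6217 and 6017 CPM (1.28, adjusted p = 0.043), and DNAJB4, an HSP70 co-chaperone, at 18.3, 26.3 and 21.4 CPM against 67.0, 56.0 and 57.1 CPM (1.45 ± 0.30, adjusted p = 0.0127). At HSP90AA1 replicate 1 lay within batch 2, and at DNAJB4 it lay just below both batch 2 libraries. HSPE1, the mitochondrial HSP10, was instead higher in replicate 1 than in batch 2 (2.16). Replicate 7 was the highest library at 16 of the 23 heat shock genes.

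Of 29 NRF2 oxidative stress genes 4 were called lower in batch 4 and none higher, and none was called between replicate 1 and batch 2. FTH1, the ferritin heavy chain, stood at 844, 670 and 951 CPM in replicates 1, 2 and 3 and at 190, 166 and 115 CPM in batch 4 (-2.38 ± 0.36, adjusted p = 0.00284). ABCC3, an efflux transporter, stood at 52.95, 90.4 and 158 CPM against 9.52, 11.9 and 11.8 CPM (-3.18 ± 0.40, adjusted p = 0.00161), and SLC7A11, the cystine importer, at 139, 663 and 225 CPM against 106, 72.8 and 141 CPM. The last of these overlapped between the groups although it passed the test (-1.68, adjusted p = 0.0485). Of 34 hypoxia genes 4 were called lower in batch 4 and 1 lower in replicate 1. The angiogenic factor VEGFA was that gene, with 71.2 CPM in replicate 1, 265 and 357 CPM in batch 2 and 51.8, 49.5 and 61.8 CPM in batch 4 (-2.13, adjusted p = 0.0366 for replicate 1; -2.09, adjusted p = 0.0165 for batch 4), and EPAS1, which encodes HIF-2alpha, was lower in batch 4 (-1.87). Of 28 p53 targets 3 were called lower, among them GDF15, a secreted stress cytokine, at 373, 733 and 1004 CPM against 81.4, 174 and 60.9 CPM (-2.74, adjusted p = 0.00584), and BBC3, the pro-apoptotic PUMA (-1.38). Of 26 autophagy and lysosome genes 2 were called lower, of which MAP1LC3B, the autophagosome marker LC3B, stood at 166, 687 and 368 CPM against 118, 155 and 117 CPM (-1.65). Over all genes 4.94% were called lower in batch 4. Lists with 1 or 2 calls, here and below, are given for the genes and not as results about the list.

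Of 31 immediate early genes 5 were called lower in batch 4 and 3 lower in replicate 1 (medians -0.83 and -0.65). JUN, a subunit of the AP-1 transcription factor, stood at 49.4, 166 and 116 CPM in replicates 1, 2 and 3 and at 23.9, 21.8 and 18.2 CPM in batch 4 (-2.37 ± 0.40, adjusted p = 0.00553). Its relative JUND had another order, with replicate 1 the highest at 373 CPM, replicates 2 and 3 at 264 and 180 CPM and batch 4 at 75.0, 64.0 and 40.6 CPM (-2.18 ± 0.38, adjusted p = 0.00584). KLF4, a factor of differentiating gut epithelium, was lower in batch 4 and in replicate 1 (-1.97 and -1.79, adjusted p = 0.0131 and 0.0447). Of 14 ligands and receptors of the epidermal growth factor family 3 were called lower in batch 4 and 2 lower in replicate 1. HBEGF, a ligand of the receptor, stood at 11.1 CPM in replicate 1, 69.6 and 103 CPM in batch 2 and 12.4, 10.3 and 10.2 CPM in batch 4 (-2.95 ± 0.49 for replicate 1, adjusted p = 0.0104; -2.48 for batch 4, adjusted p = 0.0167), and AREG, another ligand, was lower in replicate 1 (-2.47, adjusted p = 0.0356). ERRFI1, a feedback inhibitor of the receptor, stood at 1266, 4020 and 3352 CPM against 822, 1098 and 984 CPM (-1.57, adjusted p = 0.0372).

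Signalling lists gave small numbers of calls between batch 4 and batches 1 and 2, beside 4.94% of all genes lower and 3.09% higher. More were called between batch 4 and batch 2 alone. There 9 of 19 NF-kappaB and cytokine genes were lower and 0 higher. Of 31 interferon-stimulated genes 12 were lower and 1 higher, beside 9.21% of all genes lower and 9.48% higher. Of 19 NF-kappaB and cytokine genes 2 were called lower in batch 4, the NF-kappaB subunit RELB (-1.68) and the adhesion molecule ICAM1 (-1.64), and 2 lower in replicate 1, of which the chemokine CXCL1 stood at 0.117 CPM in replicate 1, 5.05 and 5.03 CPM in batch 2 and 0.156, 0.590 and 0.643 CPM in batch 4. Of 31 interferon-stimulated genes 5 were called lower in batch 4, including the antiviral membrane proteins IFITM1, at 3.86, 4.38 and 9.23 CPM against 0.961, 1.35 and 0.421 CPM, and BST2, and replicate 3 was the highest library at 19. OAS3, a sensor of double-stranded RNA, was the single member called between replicate 1 and batch 2, at 121 CPM against 30.0 and 38.7 CPM (1.81, adjusted p = 0.0447). Of 16 Wnt targets 1 was called: DKK1, a secreted Wnt antagonist, stood at 244, 106 and 31.1 CPM in replicates 1, 2 and 3 and 354, 550 and 628 CPM in batch 4 (2.01, adjusted p = 0.0385). Of 26 YAP and TEAD targets 2 were called lower, the growth factor carrier IGFBP3 (-2.84) and the ectonucleotidase NT5E (-1.41). Of 13 noncoding RNAs in a further list the 1 called was NORAD, a binder of Pumilio proteins, which was lower in batch 4 (-1.38). Among 8 methyltransferase genes edgeR made no call in batch 4 or in replicate 1; DNMT1 gave 0.46 with an adjusted p of 0.47 in batch 4 and 0.95 with 0.284 in replicate 1.

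Metabolic lists gave few calls between batch 4 and batches 1 and 2, beside 3.09% of all genes higher and 4.94% lower. Between batch 4 and batch 2 the share of all genes called higher was 9.48%. Of 70 nuclear genes of oxidative phosphorylation 1 was called higher in batch 4 and 1 higher in replicate 1, but 23 were called higher in batch 4 than in batch 2, and at 21 of these replicate 1 was at or past batch 4. The medians were 0.54 for batch 4 against batches 1 and 2, 0.88 for replicate 1 against batch 2 and 0.87 for batch 4 against batch 2. ATP5MC1, a subunit of the ATP synthase ring, stood at 176 CPM in replicate 1, 39.0 and 40.3 CPM in batch 2 and 113, 220 and 188 CPM in batch 4 (2.15 ± 0.44 for replicate 1, adjusted p = 0.0264). NDUFB3, of respiratory complex I, stood at 26.9, 15.3 and 9.83 CPM against 26.1, 75.6 and 65.3 CPM (1.68, adjusted p = 0.0307), where replicate 7 overlapped with replicate 1. Libraries of batch 4 were not alike here: replicate 7 lay below replicates 8 and 9 at 56 of the 70 genes. For 76 cytosolic ribosomal protein genes replicate 7 lay below replicates 8 and 9 at 71 and was the lowest library at 53; 2 were called higher in batch 4 (RPL17 and RPS26) and 1 higher in replicate 1, and their many pseudogenes make these counts uncertain.

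Of 20 glycolysis genes 1 was called lower in batch 4, the aldolase isozyme ALDOC (-1.47), and none was called in replicate 1. LDHA, lactate dehydrogenase A, stood at 1284 CPM in replicate 1, 451 and 508 CPM in batch 2 and 1312, 1184 and 1030 CPM in batch 4, a difference that passed between batch 4 and batch 2 (1.29, adjusted p = 0.0185) but not in the other comparisons (0.65, adjusted p = 0.339, and 1.42, adjusted p = 0.106). Of 25 tricarboxylic acid cycle genes 1 was called lower, PC, the pyruvate carboxylase that refills the cycle (-1.18). Of 26 cholesterol synthesis genes 3 were called higher in batch 4 and 1 lower, and 2 higher in replicate 1. ACAT2, the cytosolic thiolase of the first step, passed in both, at 18.5 CPM in replicate 1, 5.05 and 4.25 CPM in batch 2 and 27.0, 39.2 and 34.7 CPM in batch 4 (1.86, adjusted p = 0.0299 and 1.99, adjusted p = 0.0256). IDI1 and STARD4 were higher in batch 4 (1.49 and 1.53), and the sterol reductase gene TM7SF2 was lower, at 83.7, 29.1 and 32.1 CPM against 13.02, 18.5 and 11.2 CPM (-1.76, adjusted p = 0.0203). Of 20 fatty acid synthesis genes 2 were called lower: ACSS2, which makes acetyl-CoA from acetate, at 114, 124 and 202 CPM against 33.99, 36.7 and 30.2 CPM (-2.12 ± 0.33, adjusted p = 0.00379), and the acyl-CoA synthetase ACSL5 (-1.66). Of 37 ribosome biogenesis genes the 1 called was NPM1, nucleophosmin, which was higher in batch 4 (1.25, adjusted p = 0.0399). The shares over all genes were 3.09% higher and 4.94% lower.

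LCN2, a secreted siderophore binder and among the 10 largest decreases in batch 4, stood at 13.9, 113 and 321 CPM in replicates 1, 2 and 3 and at 0.779, 0.805 and 0.332 CPM in batch 4 (-7.87 ± 0.92, adjusted p = 0.00161). Replicate 1 differed from batch 2 as well (-3.97, adjusted p = 0.015), so replicate 1 again stood between. SLPI, a secreted protease inhibitor, stood at 2.66, 8.68 and 21.2 CPM against 0.208, 0.374 and 0.288 CPM (-5.22), FUT3, the Lewis fucosyltransferase, at 6.05, 8.63 and 16.4 CPM against 0.130, 0.374 and 0.399 CPM (-5.09), and APOL6 at 2.81, 16.4 and 29.0 CPM against 0.415, 0.316 and 0.332 CPM (-5.49). KLHDC7B stood at 1.73, 26.1 and 34.8 CPM against 0.0130, 0.0575 and 0.0222 CPM, and BEST1, a chloride channel, at 0.614, 10.9 and 7.39 CPM against 0.156, 0 and 0.111 CPM, levels of a few counts from which no fold was taken. In 243 of the 921 lower genes the batch 4 mean was under 1 CPM. Epithelial markers moved with them: 4 of 10 tested markers of colon carcinoma epithelium were called lower in batch 4, among them the tight junction gene CLDN3 at 49.1, 27.1 and 32.2 CPM against 6.06, 8.89 and 4.40 CPM (-2.49). The summed level of the 14 markers, which include the abundant keratins KRT8, KRT18 and KRT19, was 5262 to 6606 CPM in replicates 1 to 3 and 2875 to 4322 CPM in batch 4. Their part in the other decreases was not tested.

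Among the largest increases were MAD2L1, a spindle checkpoint protein, at 152, 45.5 and 8.87 CPM against 204, 411 and 457 CPM (2.38 ± 0.69, adjusted p = 0.0457), HMMR, a spindle and hyaluronan-binding protein (2.37), ESCO2, the cohesin acetyltransferase of S phase (2.33), and FANCB of the Fanconi anaemia core complex (2.33). ZNF804A was low throughout, at 1.23, 1.09 and 0.363 CPM against 7.21, 3.11 and 6.57 CPM (2.65). The remaining 5 of the 10 largest increases were processed pseudogenes: MAD2L1P1 (2.90), DEPDC1P2 (2.79), G2E3P1 (2.40), RAD51AP1P1 (2.38) and HSPE1P5 (2.34). Pseudogenes made up 244 of the 577 higher genes (42.3%) and 43 of the 921 lower genes (4.67%), against 17.3% of genes tested. Processed pseudogenes closely resemble the transcripts of their parent genes and the placement of reads between them was not examined, so their values are uncertain. The share of all counts in pseudogenes was 11.5%, 9.49% and 12.9% in replicates 1, 2 and 3 and 11.4%, 16.7% and 14.2% in replicates 7, 8 and 9, and with protein-coding genes alone tested 424 genes were higher and 706 lower in batch 4.

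The genes that separated batch 4 from batches 1 and 2 and also replicate 1 from replicates 2 and 3 were few. Both comparisons use the libraries of batches 1 and 2, so their overlap is given as a count. Replicate 1 stands on the side of batches 1 and 2 in the first comparison. Genes at which it lay with batch 4, such as TK1, can therefore fail there although both differ from batch 2. The overlap thus does not measure how far replicate 1 and batch 4 share a difference from batch 2. Its place at genes called between batch 4 and batch 2 is given further below. Of the 577 genes higher in batch 4, 13 were also called higher in replicate 1 than in batch 2, 0 lower by edgeR, and of the 564 others 446 had the same sign; the median over the 577 was 0.53. Of the 921 lower genes 66 were also called lower in replicate 1, 7 were called higher, and of the 848 others 643 had the same sign (median -0.62). Over all genes tested the median of replicate 1 against batch 2 was -0.01.

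The 13 genes called higher in both comparisons included several with roles in division. BIRC5, the survivin subunit of the chromosomal passenger complex, stood at 290 CPM in replicate 1, 98.2 and 42.4 CPM in batch 2 and 452, 646 and 556 CPM in batch 4 (2.05, adjusted p = 0.0426 for replicate 1; 1.94, adjusted p = 0.0387 for batch 4). TUBA1B, an alpha-tubulin, stood at 280 CPM, then 86.0 and 85.0 CPM, then 577, 518 and 478 CPM in the same order, and NUDT1, which clears oxidised nucleotides, at 17.6 CPM, 3.29 and 3.40 CPM, and 27.2, 31.1 and 29.7 CPM. In all 3 the batches were separate and replicate 1 was in the middle. The others were ACAT2, CDCA3, the helicase subunit GINS2, the kinetochore genes CENPW and CENPX, the spindle helicase ERCC6L, PIMREG and the pseudogenes CDC20P1, FABP5P1 and PCNAP3.

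The 66 genes called lower in both comparisons included 13 members of the lists: ATF3, CDKN2B, CHAC1, DDIT3, ERN1, HBEGF, KLF4, NUPR1, PPP1R15A, SESN2, STC2, TNFRSF10B and VEGFA. SESN2, a leucine sensor and inhibitor of mTORC1, stood at 57.2 CPM in replicate 1, 306 and 311 CPM in batch 2 and 38.3, 21.7 and 22.2 CPM in batch 4 (-2.43, adjusted p = 0.0298 and -3.04, adjusted p = 0.006). Outside the lists, the genes given next were chosen after their values were seen. LAMB3, the beta chain of an epithelial laminin, stood at 75.9 CPM, then 309 and 419 CPM, then 44.03, 28.6 and 24.9 CPM. GADD45A, a growth arrest and DNA damage gene, stood at 60.3 CPM, then 250 and 265 CPM, then 34.1, 57.2 and 38.5 CPM. At GADD45A replicate 1 lay closer to batch 4 than at LAMB3, and ARRDC4, a glucose-responsive arrestin, stood at 14.7 CPM against 146 and 66.6 CPM and 6.44, 11.8 and 6.21 CPM.

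The 7 genes that were higher in replicate 1 than in batch 2 and yet lower in batch 4 were C4orf48, CCDC85B, LRRC26, PADI3, RPL10P3, TGFBR3L and TPGS1. PADI3, a peptidylarginine deiminase, stood at 12.5 CPM in replicate 1, 0.632 and 1.19 CPM in batch 2 and 0.364, 0.489 and 0.222 CPM in batch 4, so replicate 1 stood alone. CCDC85B was the most abundant, at 272 CPM, then 93.2 and 65.3 CPM, then 49.4, 33.3 and 25.0 CPM. TMEM160 set replicate 1 apart as well, at 19.6 CPM against 1.35 to 2.78 CPM in the other libraries (3.24 against batch 2, adjusted p = 0.0098). COL6A3, a collagen chain of the fibroblast list, put replicate 1 with batch 4, at 0.351 CPM beside 0.222 to 0.442 CPM, and batch 2 at 6.36 and 6.69 CPM.

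The place of replicate 1 is given at genes called between batch 4 and batch 2, a contrast in which it had no part. These genes were picked for the distance between batches 2 and 4, which favours a place between them for any other library. Of the 1768 higher genes replicate 1 was at or past the batch 4 libraries at 618 (35.0%), between at 895 (50.6%) and at or past the batch 2 libraries at 243 (13.7%). Of the 1718 lower genes the numbers were 452 (26.3%), 898 (52.3%) and 360 (20.95%). The place differed between lists: for G2/M and mitosis genes replicate 1 was at or past batch 4 at 3 of 60, for G1/S and DNA replication genes at 16 of 47, for endoplasmic reticulum stress genes at 7 of 8 and for oxidative phosphorylation genes at 21 of 23. The counts of this contrast rested on replicate 3: without it 593 genes were higher and 838 lower, and 26 G2/M and mitosis genes and 29 G1/S and DNA replication genes were higher.

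**Figure D3:**
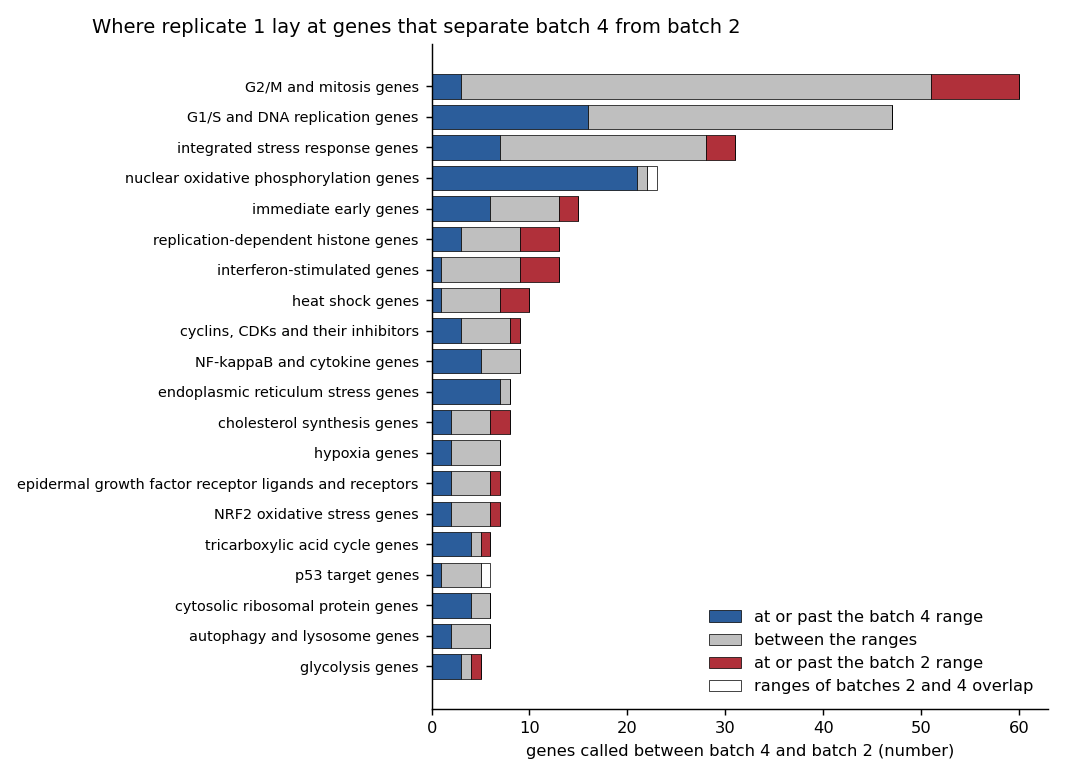
Place of replicate 1 at the genes of each list called between batch 4 and batch 2 (bars, number of genes), split by whether replicate 1 was at or past the batch 4 range (blue), between (grey), at or past the batch 2 range (red), or the ranges of batches 2 and 4 overlapped (white). Replicate 1 was mostly between for the 60 G2/M and mitosis genes and at or past batch 4 for 21 of the 23 oxidative phosphorylation genes.

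The DNMT1 KO libraries of batches 1 and 2 share their batch labels with HCT116 replicates 1 to 3 but no library, so the same contrast could be read in cells of another genotype. In 1 fit of all 10 libraries over 20033 genes, edgeR called no gene higher or lower between DNMT1 KO replicate 1 and its replicates 2 and 3 (0% and 0%), with 180 higher and 352 lower at an unadjusted p under 0.05, and no gene at which the contrast differed between the lines, with 227 and 282 at an unadjusted p under 0.05. The HCT116 contrast in that fit gave 17 higher and 1 lower. No other tool was run on it. Of 201 genes called higher in HCT116 replicate 1 that had a value, 192 (95.5%) had the same sign in DNMT1 KO, with a median of 0.70 beside 2.09 in HCT116, and of 151 called lower 146 (96.7%), with medians of -0.96 and -2.36, against 72.1% of all genes. The shares differed between the batch 2 libraries of DNMT1 KO: taken against replicate 3 alone 97.5% and 97.4% had the same sign, against replicate 2 alone 74.1% and 68.9%. For these single pairs the share over all genes was not taken, so they cannot be set beside the 72.1%. TK1 stood at 423, 314 and 130 CPM in DNMT1 KO replicates 1, 2 and 3, CHAC1 at 17.3, 38.6 and 113 CPM and ATF3 at 31.7, 40.3 and 121 CPM, so replicate 3 was the extreme library for each. It was the lowest of the 4 DNMT1 KO libraries at 44 of 50 G1/S and 51 of 69 G2/M genes and the highest at 38 of 42 integrated stress response genes. For these counts too the share over all genes was not taken. Interferon-stimulated genes had medians of -0.28 in HCT116 and -1.79 in DNMT1 KO, where none of the 31 was positive, and the difference for the list was not tested.

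**Figure D4:**
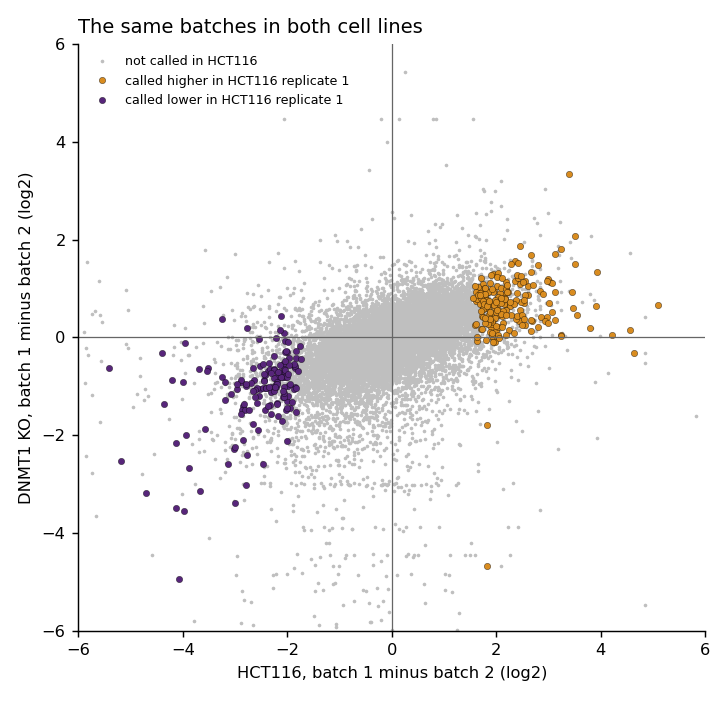
Log2 fold change of batch 1 against batch 2 for each gene in HCT116 (horizontal axis, replicate 1 minus replicates 2 and 3) and in DNMT1 KO (vertical axis, the same replicate numbers); orange points were called higher and purple points lower in HCT116 replicate 1, grey points were not called, and 151 genes lie outside the axes, which end at 6. Most called genes keep their sign in DNMT1 KO with a smaller size, 192 of 201 and 146 of 151.

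Fold changes also followed the base composition and length of genes. With genes cut into 5 bins of equal number, from the bin with the lowest GC content (26.8% to 40.9%) to the bin with the highest (57.3% to 76%), the median log2 fold change of batch 4 against batches 1 and 2 went from 0.31 through 0.18, -0.03 and -0.11 to -0.33. From the shortest to the longest exonic length it went from 0.36 to -0.17. Replicate 1 against batch 2 had another shape, with 0.26 in the bin with the highest GC content and -0.13 in the middle bin, and the DNMT1 KO contrast followed it closely in GC content (0.24 and -0.17). Median GC content was 43.1% for G2/M and mitosis genes, 47.4% for G1/S and DNA replication genes and 51.8% for integrated stress response genes. Over all genes it was 47.8%. The part of GC content in the shifts of these lists was not tested apart from the counts given next. With the GC trend removed 494 genes were higher and 815 lower in batch 4, and with the length trend removed 524 and 909. Of the lists, 23 G2/M and mitosis genes and 13 G1/S and DNA replication genes were called higher with the GC trend removed, and 23 integrated stress response genes lower.

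**Figure D5:**
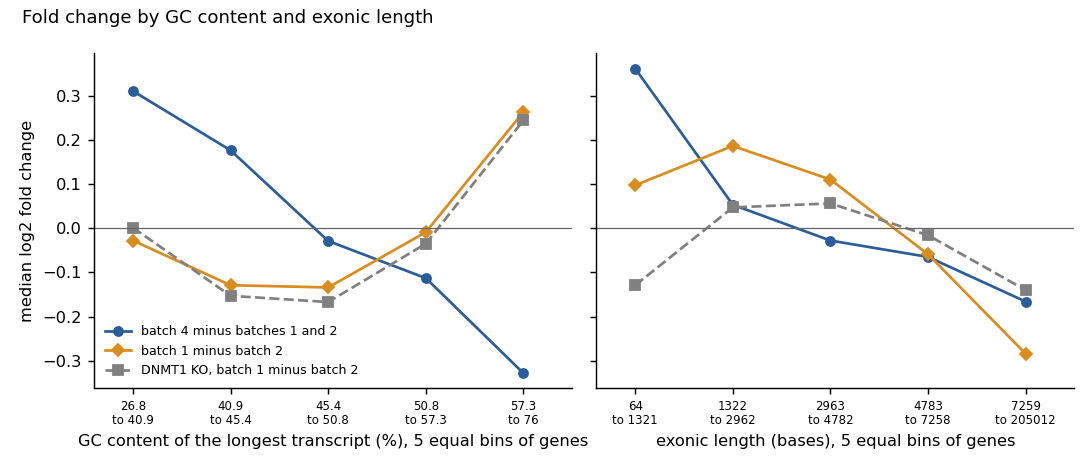
Median log2 fold change in 5 bins of genes by GC content of the longest transcript (left, %) and by exonic length (right, bases) for batch 4 against batches 1 and 2 (blue), replicate 1 against batch 2 (orange) and the same contrast in DNMT1 KO (grey, dashed). The batch 4 line falls from 0.31 to -0.33 with GC content, and the lines of batch 1 against batch 2 in both cell lines rise to 0.26 and 0.24 in the bin with the highest GC content.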

How the data were processed

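The deposited files held counts per gene. The authors made them from paired-end reads trimmed with Trim Galore 0.4.1 and checked with FastQC 0.11.4. Reads were mapped with bowtie2 (genome build hg38, no spliced alignment), filtered with SAMtools and counted over exons with featureCounts. For featureCounts the study lists the paired-end setting -p and no strand option. Between 64.4% and 70.0% of counts from 1 to 10 were even in the HCT116 libraries and 39.9% in DNMT1 KO replicate 4. Such an excess of even counts arises where both mates of a pair are counted. The version of featureCounts is not given, and how pairs were counted was not tested. Halving all counts gave 645 higher and 953 lower genes in batch 4. Of 58884 genes, 58472 matched GENCODE 44. Counts were tested with edgeR 4.0.16 in R 4.3.3 (filterByExpr, trimmed mean of M-values, quasi-likelihood test, two-sided, Benjamini-Hochberg adjustment over all genes tested), called at an adjusted p under 0.05 and over 2-fold, the limits of the study. Batch 4 was fitted against batches 1 and 2 as 2 groups, replicate 1 and batch 4 against batch 2 in a fit with 3 levels, and DNMT1 KO in a fit of 10 libraries. DESeq2 1.42.0, other scalings and filters, GC and length corrections and left-out libraries were alternatives. All members and gene lists were chosen with earlier results of these data known. Genes were named by size among called genes with 5 CPM or more and no overlap (10 each way for batch 4, 6 each way for replicate 1), by the smallest adjusted p in each list (5 and 2), or for their place among genes called in both comparisons. No pair of HCT116 libraries of a batch agreed within counting noise (chi-square per degree of freedom 104 to 437), so none was treated as a duplicate. Tables of 3 further HCT116 replicates that belong to no sample were not used. Promoters are from RefSeq, GRCh38.p14. The scripts were tested on simulated data. Some genes that meet these rules are not reported here.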

Additional observations from a re-analysis of the deposited data

How the results depend on the processing

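No paired analysis was possible because the groups compared share no replicate numbers, and the DNMT1 KO contrast is within a line. All 103 genes picked by the naming rules and called for batch 4, and all 44 called for replicate 1, kept their direction under each alternative run for them. Groups without overlap leave little room for a change of direction. Medians and genes without a call could change sign. Of the 103, 74 kept their call in all alternatives other than left-out libraries and 25 in all 17; of the 44, 7 and 2 of 13 did. For batch 4 against batch 2, where scaling by library totals alone or RLE size factors and, added after seeing the data, left-out libraries (for counts of called genes, not for the place of replicate 1) were the only alternatives run, counts stayed within 1.5 times except without replicate 3; left-out libraries gave 593 to 1872 higher genes, 838 to 1966 lower, 26 to 66 G2/M and 29 to 46 G1/S genes. For batch 4 against batches 1 and 2, the 577 higher genes were 1129 with batches 1 and 2 weighted equally in the fit with 3 levels, 1079 with DESeq2 and 1280 without a filter on low counts, and the 921 lower genes were 1388 with DESeq2; the 30 G2/M and mitosis genes were 50, 47 and 59 and the 12 G1/S genes 28, 26 and 30 under the first 3 of these. Left-out libraries moved the higher genes from 46 to 1800, the lower from 187 to 1770, G2/M genes from 0 to 60, G1/S genes from 0 to 46 and stress response genes from 11 to 31.

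For replicate 1 against batch 2, the 202 higher genes were 551 with DESeq2, 130 with the length trend removed, 336 with the GC trend removed, 83 scaled by library totals alone, 569 without a filter and 17 with the spread of all 10 libraries, and 7 to 373 without single libraries. The 151 lower genes were 619, 280, 89, 366 and 1 with DESeq2, the GC trend removed, totals alone, no filter and the spread of 10 libraries, and 11 to 219 without single libraries. The 16 G1/S genes were 25 with the GC trend removed, 5 with totals alone, 26 without a filter and 1 with the spread of 10 libraries, and 0 to 18 without single libraries; the 5 G2/M genes were 11 with DESeq2, 2 with the length trend removed, 10 with the GC trend removed, 1 with totals alone, 16 without a filter and 1 with the spread of 10 libraries, and 0 to 37 without single libraries; the 8 stress response genes were 5 with totals alone and 0 with the spread of 10 libraries, and 1 to 9 without single libraries. In DNMT1 KO, 5 genes were higher and 13 lower without a filter, of them 1 stress response gene. Causes of these shifts were not tested, apart from the fewer libraries or genes that define an alternative.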
